A study of Homo sapiens with 5 samples.

Results

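DKK1 and 9 further genes of the Wnt pathway (DKK3, WNT5A, WNT5B, FZD2, LRP5, LRP6, CTNNB1, AXIN2 and TCF7L2) were followed in cells of 1 tumour line that hold weakly or strongly to their surface. The 10 genes were found by symbol among the 25382 genes of the count table. DKK1 was chosen because it had been among the larger decreases between these same cells, and the other 9 were added as pathway genes with those results known, so their values between the groups are given as a description. Where calls over these genes are counted, the count is a description too. The tests below are on 121 other genes of 8 Wnt pathway lists, and on a comparison between dates that the choice did not use. The lists too were chosen with earlier results of these data known, so the calls between the groups on those 121 genes are not independent of them. MDA-MB-231 is a human triple-negative breast cancer line, grown in DMEM with serum. Shear stress split its mixed population into weakly adherent cells (3 libraries, dated 6, 12 and 15 March) and strongly adherent cells (2 libraries, dated 6 and 15 March). Strongly adherent cells are the comparison group, and no unsorted cells were analysed here. The labels do not say whether the libraries came from separate cultures, so p-values measure the spread between these libraries, which may be technical. The sorting defines the groups, so a response to the shear cannot be told apart from a difference present before it.

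The libraries held 19630386 to 21707459 reads in genes, and 13297 genes passed the read filter for testing, among them 9 of the 10 genes and 82 of the 121 others. WNT5A had too few. The line's marker VIM stood at 2457 to 2619 CPM in weakly and 2651 to 2745 CPM in strongly adherent cells. CPM are reads of a gene relative to all reads in genes, scaled between libraries. AXL stood at 1305 to 1417 and 1393 to 1520 CPM. EGFR had 245 to 278 and 226 to 241 CPM, and ZEB1 77.0 to 79.4 and 64.6 to 73.9 CPM. Of the 6 high markers of the line, 2 had a log2 fold change above 0 and 4 below. ESR1 and PGR had no read in any library, while KRT18, listed as a low marker, had 484 to 524 CPM in weakly and 519 to 557 CPM in strongly adherent cells. Other genes of the low list also had reads, with ERBB2 at 85.3 to 86.6 and 82.7 to 93.9 CPM, EPCAM at 21.4 to 25.8 and 19.4 to 21.2 CPM, and GATA3 at 12.4 to 12.7 and 13.4 to 14.02 CPM in weakly and strongly adherent cells. The T cell marker CD3E and the fibroblast marker DCN had no reads, but other genes of the leukocyte and fibroblast lists did. COL1A1, the largest part of the fibroblast sum, had 11.04 to 12.97 CPM in weakly and 7.22 to 10.8 CPM in strongly adherent libraries. PDGFRB, on the same list, had 2.802 to 3.36 and 2.82 to 3.76 CPM. CD14, the largest part of the leukocyte sum, went the other way from COL1A1, with 0.902 to 1.07 and 1.36 to 1.88 CPM. The summed marker levels were 1.09 to 1.48 CPM in weakly and 1.86 to 2.12 CPM in strongly adherent libraries for 5 leukocyte genes, and 15.9 to 17.3 and 11.2 to 15.7 CPM for 6 fibroblast genes. For 5 endothelial genes they were 3.83 to 4.77 CPM in weakly and 3.43 to 4.13 CPM in strongly adherent libraries. The part of these cells in the results was not tested. In bulk RNA, fewer cells of a kind and less RNA per cell cannot be told apart.

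Wnt proteins are lipid-modified ligands that bind Frizzled receptors together with the coreceptors LRP5 and LRP6. Binding stops the APC, AXIN and GSK3 destruction complex from degrading beta-catenin (CTNNB1), which then joins TCF/LEF factors on target genes such as AXIN2. DKK1 is a secreted antagonist that occupies LRP5 and LRP6, and it is itself a target of beta-catenin in several cell types. Non-canonical ligands such as WNT5A and WNT5B act instead through planar polarity proteins, small GTPases and calcium. In breast cancer, DKK1 is known as a secreted factor that acts on bone.

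The DKK1 promoter is shown because DKK1 differed most among the 9 of the 10 genes with enough reads to fit. The ANKRD1 promoter is shown because the ANKRD1 profile across the libraries was the closest to that of DKK1, as described below. Both run from 250 bases before to 50 bases after the annotated start in RefSeq's GRCh38.p14 table, which held promoters for 6 of the 10 genes. DKK1 lies on the plus strand at chr10:52314031-52314330 and ANKRD1 on the minus strand at chr10:90921038-90921337. Capitals mark matches to 4 motifs, searched on both strands. The core of TCF/LEF sites was spelled CTTTG. The TEAD motif was spelled GGAATG. For AP-1 the letters were TGANTCA, where N is any base. The TATA box was taken as TATAAA.
DKK1: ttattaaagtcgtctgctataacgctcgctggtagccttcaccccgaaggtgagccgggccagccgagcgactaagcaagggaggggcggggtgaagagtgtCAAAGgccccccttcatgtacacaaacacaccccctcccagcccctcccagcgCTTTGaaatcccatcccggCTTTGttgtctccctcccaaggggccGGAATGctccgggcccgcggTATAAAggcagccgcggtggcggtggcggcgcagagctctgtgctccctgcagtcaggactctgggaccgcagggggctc
ANKRD1: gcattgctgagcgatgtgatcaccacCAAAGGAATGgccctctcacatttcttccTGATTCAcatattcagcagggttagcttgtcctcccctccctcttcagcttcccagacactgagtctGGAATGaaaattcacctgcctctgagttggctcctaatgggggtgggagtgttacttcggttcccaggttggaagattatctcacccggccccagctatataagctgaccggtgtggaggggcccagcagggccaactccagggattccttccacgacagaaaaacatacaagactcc
The DKK1 window held 3 CTTTG matches, 1 GGAATG match and 1 TATAAA match that starts 30 bases before the annotated start. The ANKRD1 window held 2 GGAATG matches, 1 TGANTCA match, with T at the open base, and 1 CTTTG match, which shares 1 base with a GGAATG match. Of the 35116 promoters in the table, 47.5% held CTTTG, 14.03% GGAATG, 7.71% TGANTCA and 11.5% TATAAA. These are matches of letters, not measured binding sites.

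DKK1 RNA was lower in every weakly adherent library than in either strongly adherent one. DKK1 stood at 151, 149 and 181 CPM in weakly adherent cells on 6, 12 and 15 March, against 300.2 and 306 CPM in strongly adherent cells on 6 and 15 March. The groups did not overlap, and the highest weakly adherent library was that of 15 March. The fitted difference was 1.89-fold lower in weakly adherent cells (log2 fold change -0.92, SE 0.09). It was close in size on both dates that have a pair, at -0.99 on 6 March and -0.76 on 15 March on the log2(CPM + 0.5) scale, and between -1.01 and -0.87 with any 1 library left out. The exons of DKK1 overlap PRKG1-AS1 on the opposite strand in GENCODE 29, and the strand setting of the counting is not given. PRKG1-AS1 had 15 to 21 reads in weakly and 21 to 24 reads in strongly adherent libraries, against 2918 to 3978 and 6381 to 6729 reads of DKK1.

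DKK1 was the main Dickkopf transcript in both groups. DKK3, a divergent family member that does not act on LRP6 as DKK1 does, stood at 1.42, 1.48 and 1.95 CPM in weakly and 1.51 and 2.14 CPM in strongly adherent libraries. Its groups overlapped (log2 fold change -0.17, SE 0.27), and its sign changed to 0.11 without the 15 March strongly adherent library. DKK2 had no read in any library and DKK4 at most 1. A count of 0 allows up to 0.138 to 0.153 CPM per library, taken as 3 reads, which covers counting error only.

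Per kb of transcript, DKK1 was one of the 2 most abundant of the 10 genes. DKK1 had 84.4, 83.2 and 101 CPM per kb in weakly adherent libraries, against 168 and 171 CPM per kb in strongly adherent ones. CTNNB1 had 148, 152 and 141 CPM per kb in weakly and 143 and 141 CPM per kb in strongly adherent libraries. The level of DKK1 was thus below that of CTNNB1 in the 3 weakly adherent libraries and above it in both strongly adherent ones. The transcript is that with the longest coding sequence, and which one the cells express is not known. With the longest annotated transcript, mean CTNNB1 was 94.2 and 90.8 CPM per kb and mean DKK1 89.5 and 169 CPM per kb in weakly and strongly adherent cells, so the gap in weakly adherent cells rests on that choice. Below them followed LRP5 with means of 30.4 and 28.1, FZD2 with 20.2 and 23.5 and WNT5B with 8.74 and 10.3 CPM per kb in weakly and strongly adherent cells. LRP6 (6.11 and 4.71 CPM per kb) lay above TCF7L2 (5.20 and 4.81 CPM per kb) in weakly adherent libraries, while the libraries of this pair overlapped in strongly adherent cells. AXIN2 and DKK3 followed at means of 1.13 to 1.37 CPM per kb with overlapping libraries, and WNT5A came last.

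**Figure D1:**
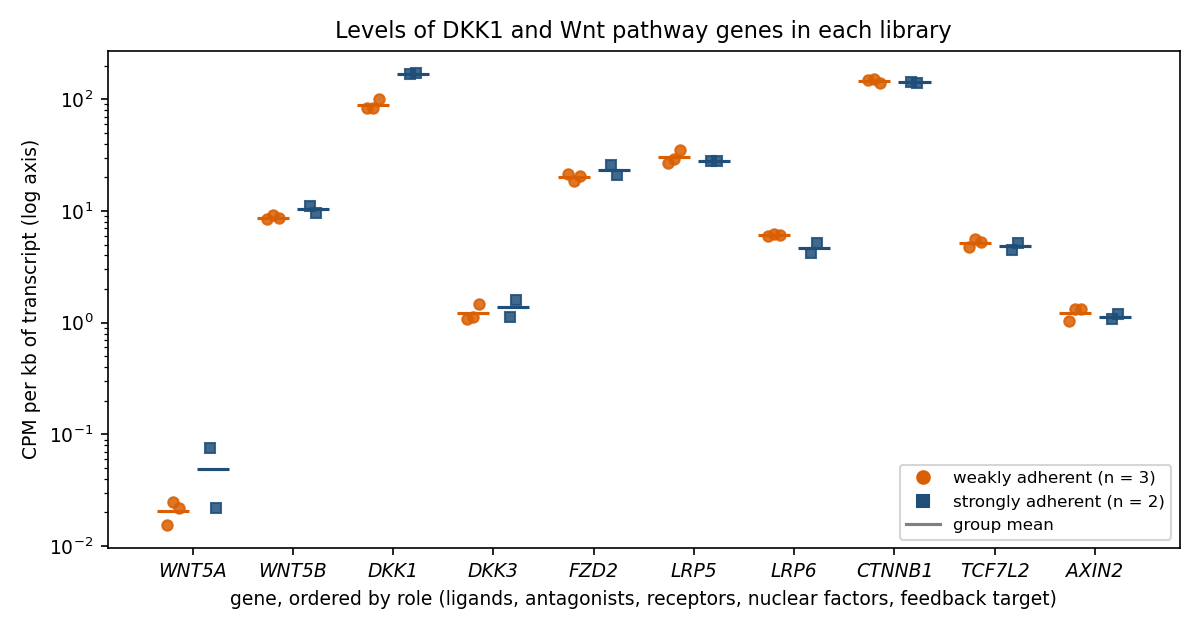
Level of each of the 10 genes in each library, in CPM per kb of transcript on a log axis, with circles for weakly adherent libraries, squares for strongly adherent ones and lines for group means. DKK1 is at 83.2 to 101 in weakly and 168 to 171 in strongly adherent libraries, while CTNNB1 stays between 141 and 152.

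Of the 9 tested genes, 1, DKK1, had an adjusted p under 0.05 by edgeR's quasi-likelihood test, where 2.68% of all genes tested did. These values chose the genes, so nothing is read from that count. LRP6 was also past the threshold by DESeq2's Wald test, with no filter on low counts, and with the shared date as a block, which leaves 1 residual degree of freedom, with or without the coding-length trend (2 of 9 with the block alone, where 11.5% of all genes did, 6.2% higher and 5.28% lower). DKK1 and WNT5B were lower in all weakly adherent libraries than in both strongly adherent ones, a pattern that 14.5% of all genes tested showed, and LRP6 was higher, as 15.5% were. The median log2 fold change of the 9 genes was 0.05, beside -0.00054 for all genes tested.

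The ligands among the 10 genes were low or close between the groups. WNT5B, a ligand of the non-canonical branch, had 19.5, 21.0 and 19.9 CPM in weakly and 25.7 and 21.9 CPM in strongly adherent libraries. The groups did not overlap, but the 15 March strongly adherent library lay close to that of weakly adherent cells on 12 March (log2 fold change -0.24, SE 0.11, or -0.12 without the 6 March strongly adherent library). WNT5A had 2, 3 and 3 reads in weakly and 10 and 3 reads in strongly adherent libraries, too few to give a direction.

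Of 19 WNT genes, 7 passed the read filter. The other 12 had at most 10 reads in any library, and 5 of them had none in any. WNT7B, named after its values were seen, had the highest level per kb among the WNT genes, at 26.2 ± 1.12 CPM per kb in weakly (SD, n = 3) and 24.5 ± 0.94 in strongly adherent cells (SD, n = 2). None of the 8 tested ligand and release genes outside the 10 was called. Their median log2 fold change was -0.13, with 2 above and 6 below 0. WNT3 had 5.70, 4.08 and 5.41 CPM in weakly and 7.39 and 6.72 CPM in strongly adherent libraries (log2 difference -0.47 with SE 0.17, edgeR's adjusted p 0.20). WNT9A had 9.02, 9.45 and 12.2 CPM in weakly and 7.53 and 7.81 CPM in strongly adherent libraries (0.41, SE 0.16, edgeR's adjusted p 0.22, 0.011 with the date block, and 0.0056 to 0.59 over all alternatives). WNT3 and WNT9A thus lay on opposite sides of 0. Of all 9 tested ligand and release genes, WNT5B among them, 5 were lower without overlap between the groups and 2 were higher. Of all genes tested, 14.5% were lower in that way and 15.5% higher. WLS, the carrier that brings Wnt proteins to the cell surface, differed by -0.08 on the log2 scale (SE 0.10, edgeR's adjusted p 0.82).

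The receptors among the 10 genes differed in direction. LRP6, a coreceptor that DKK1 binds, had 59.5, 63.0 and 61.1 CPM in weakly and 42.2 and 52.2 CPM in strongly adherent libraries. The groups did not overlap, and the 6 March strongly adherent library was the lowest (log2 fold change 0.37, SE 0.10). The difference was 0.23 without that library, 0.54 without the 15 March strongly adherent library, and 0.26 with the trend of each library with coding length removed. LRP5, the other coreceptor, had 140, 150.4 and 180.3 CPM in weakly and 144 and 146 CPM in strongly adherent libraries. Its groups overlapped, with a log2 fold change of 0.11 (SE 0.10) that was -0.01 with the coding-length trend removed and 0.0044 without the 15 March weakly adherent library. FZD2, a Frizzled receptor, had 44.8, 39.3 and 43.7 CPM in weakly and 54.8 and 44.3 CPM in strongly adherent libraries. Those groups overlapped (log2 fold change -0.22, SE 0.10, or -0.06 without the 6 March strongly adherent library).

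None of the 10 tested receptor and coreceptor genes outside the 10 was called, and their median log2 fold change was 0.02, with 6 above and 4 below 0. FZD3 had a log2 fold change of 0.34 (SE 0.15) and FZD8 one of -0.40 (SE 0.18), both at an edgeR adjusted p of 0.33. FZD7 had the highest level per kb of the 10 Frizzled genes (32.9 ± 2.00 CPM per kb in weakly and 32.8 ± 2.48 in strongly adherent cells, SD, n = 3 and n = 2) and a log2 fold change of 0.0030 (SE 0.08). The antagonists beside the Dickkopf genes had few reads. SOST, the sclerostin gene whose product also blocks LRP5 and LRP6, had 0.71, 1.07 and 0.95 CPM in weakly and 2.31 and 1.41 CPM in strongly adherent libraries. Its groups did not overlap (log2 difference -1.02 with SE 0.31, edgeR's adjusted p 0.12, 0.0068 with the date block, and up to 0.70 over all alternatives), and the difference was -0.63 without the 6 March strongly adherent library. SFRP1, a secreted Frizzled-like decoy, was on the other side (0.76, SE 0.42, edgeR's adjusted p 0.48). CKAP4, a cell-surface receptor of DKK1, had 247, 256 and 247 CPM in weakly and 276 and 264 CPM in strongly adherent libraries (-0.11, SE 0.07, edgeR's adjusted p 0.53). None of the 4 tested genes of that list outside the 10 was called.

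R-spondins, secreted agonists that keep Frizzled receptors at the surface, were nearly silent: 3 of the 4 genes had no read and the fourth at most 2. Of the 4 tested genes that act on receptor turnover none was called. LGR4, an R-spondin receptor, differed by 0.13 on the log2 scale (SE 0.15, edgeR's adjusted p 0.82). LGR5, an R-spondin receptor and a target gene, had 1.04, 0.77 and 1.23 CPM in weakly and 0.56 and 0.41 CPM in strongly adherent libraries (1.06, SE 0.37, edgeR's adjusted p 0.19, 0.028 with the date block, and up to 0.60 over all alternatives).

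**Figure D2:**
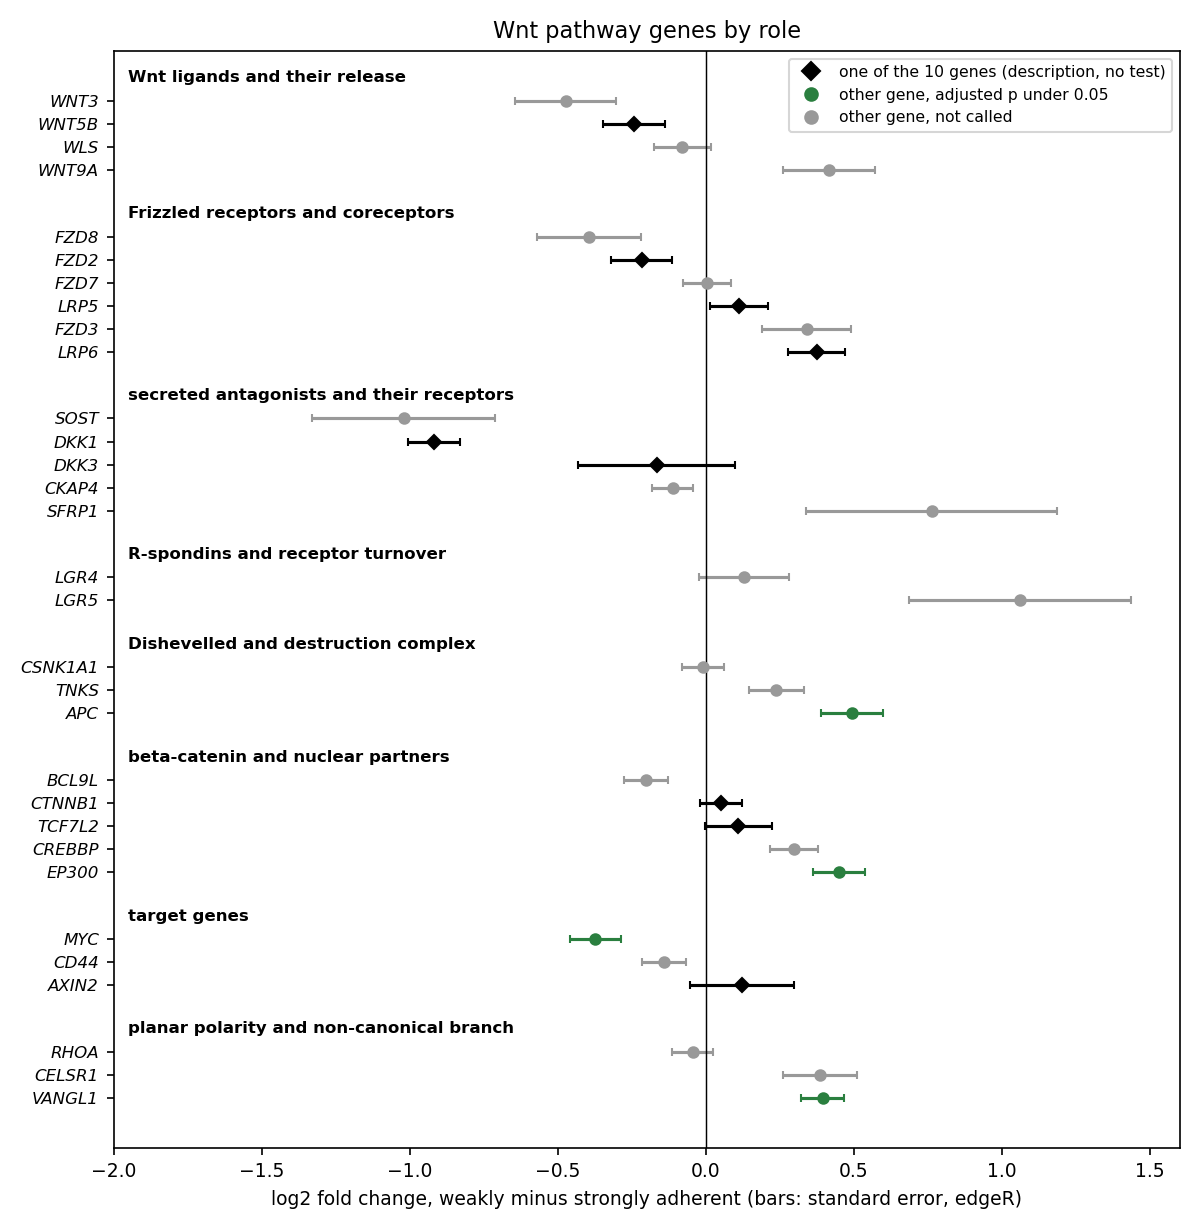
Log2 fold change, weakly minus strongly adherent, with its standard error from edgeR, for 9 of the 10 genes (diamonds) and for other Wnt pathway genes (circles), grouped by role. DKK1 at -0.92 stands apart from the other diamonds, which lie between -0.24 and 0.37, and the 4 green circles are APC, EP300, MYC and VANGL1.

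CTNNB1, TCF7L2 and AXIN2, which mark the nuclear end of the pathway, were close between the groups. CTNNB1, which encodes beta-catenin, had 463, 476 and 442 CPM in weakly and 447 and 441 CPM in strongly adherent libraries (log2 fold change 0.05, SE 0.07). TCF7L2, a DNA-binding partner of beta-catenin, had 19.3, 22.9 and 21.4 CPM in weakly and 18.3 and 20.9 CPM in strongly adherent libraries (0.11, SE 0.11). AXIN2, a feedback inhibitor widely read as a beta-catenin target, had 4.42, 5.67 and 5.68 CPM in weakly and 4.56 and 5.09 CPM in strongly adherent libraries (0.12, SE 0.18). For each of these 3 genes the groups overlapped. With any 1 library left out, the log2 fold change ran from 0.03 to 0.09 for CTNNB1, from 0.01 to 0.22 for TCF7L2 and from 0.04 to 0.23 for AXIN2. Transcript levels of CTNNB1 say nothing of the beta-catenin protein, which is controlled by its degradation.

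In the wider pathway 4 of the 82 other tested genes were called by edgeR at a Benjamini-Hochberg adjusted p under 0.05, 3 higher and 1 lower in weakly adherent cells. That is 4.88%, beside 2.68% of all genes tested (1.77% higher and 0.918% lower). With the date block 11 were called, 8 higher and 3 lower, or 13.4% beside 11.5% of all genes. Their median log2 fold change was -0.01, with 40 above and 42 below 0. With the coding-length trend removed 1 was called (1.22%, beside 1.99% of all genes), and the calls over all genes split into 127 higher and 138 lower, against 235 and 122 with the trend left in.

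Of the 19 genes of the Dishevelled and destruction complex list, APC was called higher and none was called lower. Their log2 fold changes were above 0 for 12 and below 0 for 7. APC, the scaffold that holds beta-catenin for degradation, had 46.6, 44.9 and 46.8 CPM in weakly and 28.8 and 36.7 CPM in strongly adherent libraries (log2 difference 0.49 with SE 0.11, edgeR's adjusted p 0.026). Its exons overlap AC008575.1 on the same strand in GENCODE 29, but the deposited counts hold no gene of that name. The call was lost on leaving out the 6 March strongly adherent library (0.33, edgeR's adjusted p 0.29), the 12 March weakly adherent library (0.063) or that of 15 March (0.0955), and its adjusted p ran from 1.8e-08 to 0.62 over all alternatives. TNKS, a tankyrase that marks AXIN for degradation, differed by 0.24 on the log2 scale (SE 0.09, edgeR's adjusted p 0.24, 0.0273 with the date block, and up to 0.57 over all alternatives), and CSNK1A1, the kinase that primes beta-catenin, by -0.0097 (SE 0.07).

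Of the 12 other tested genes on the list of beta-catenin's nuclear partners, EP300 was called higher and none was called lower. Their log2 fold changes were above 0 for 5 and below 0 for 7. TLE1, named after its values were seen, had 56.9, 44.7 and 47.9 CPM in weakly and 66.5 and 59.2 CPM in strongly adherent libraries. It was not called in the main fit. It was called lower with no filter on low counts and without the 6 March weakly adherent library. With the date block it was called lower too, with or without the coding-length trend. EP300, a histone acetyltransferase and coactivator of many factors besides beta-catenin, had 100.02, 86.0 and 95.4 CPM in weakly and 64.8 and 72.5 CPM in strongly adherent libraries (log2 difference 0.45 with SE 0.09, edgeR's adjusted p 0.018). The call was lost on leaving out the 6 March strongly adherent library (edgeR's adjusted p 0.18) or the 15 March weakly adherent library (0.063), with a range of 3.4e-11 to 0.42 over all alternatives. Its relative CREBBP differed by 0.30 on the log2 scale (SE 0.08, edgeR's adjusted p 0.084, 2.2e-05 with the date block, and up to 0.98 over all alternatives). BCL9L, a beta-catenin cofactor, differed by -0.20 (SE 0.08, edgeR's adjusted p 0.22). With the coding-length trend removed and the date block it was called lower (-0.26, edgeR's adjusted p 0.00356, with up to 0.72 over all alternatives).

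APC, EP300 and CREBBP have coding sequences of 8529, 7242 and 7326 bases, and long genes were higher in weakly adherent cells in general. Of the tested Wnt genes 7 have over 6000 coding bases. Their median log2 fold change was 0.30, as was that of all 328 such genes, and with the trend removed both medians were 0.01. With the trend removed, the log2 fold changes of APC, EP300 and CREBBP were 0.15, 0.18 and 0.02, at edgeR adjusted p of 0.62, 0.42 and 0.98. With the date block added to that fit EP300 was called (0.22, edgeR's adjusted p 0.0244), while APC (0.15, 0.28) and CREBBP (0.05, 0.77) were not. DKK1, with 798 coding bases, had a log2 fold change of -0.89 with the trend removed and of -0.84 with the date block added.

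**Figure D3:**
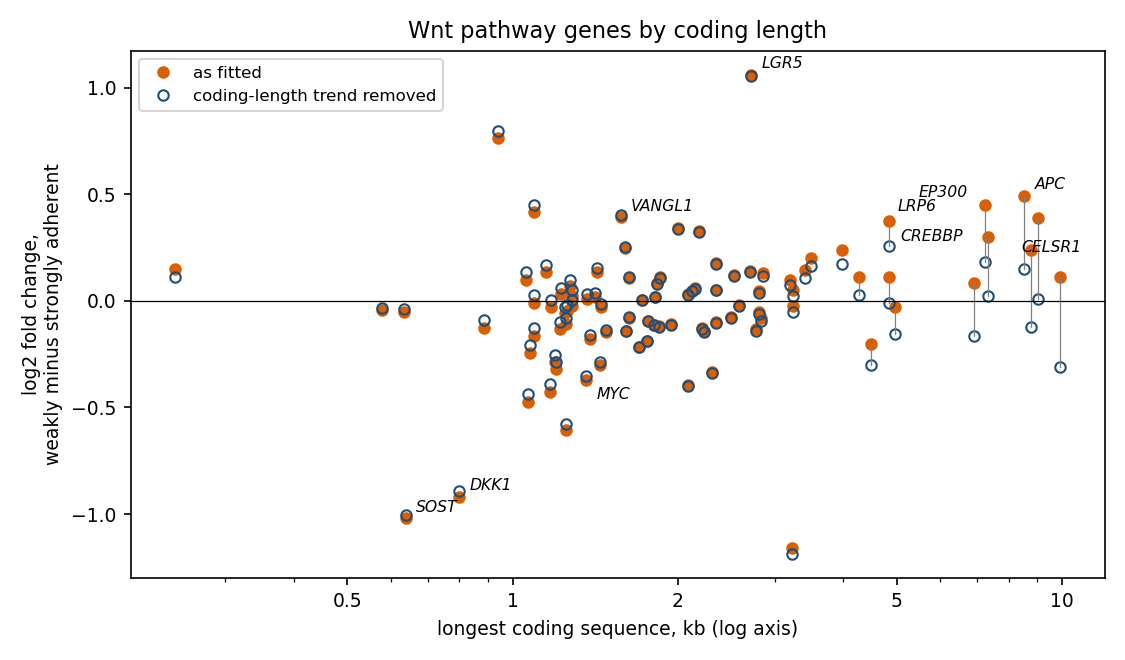
Log2 fold change, weakly minus strongly adherent, of each tested Wnt pathway gene against its longest coding sequence in kb (log axis), as fitted (filled) and with each library's trend with coding length removed (open). Grey lines join the values of a gene that moved by more than 0.08. APC, at 0.49 as fitted and 0.15 with the trend removed, shows the shift of the long genes, and DKK1 lies at -0.92 and -0.89.

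Of the 11 other tested target genes, MYC was called lower and none was called higher. Their log2 fold changes, 3 above and 8 below 0, ran from -0.37 to 1.06 with a median of -0.13. MYC, a growth regulator and beta-catenin target in colon, which many other signals also control, had 127, 107 and 115 CPM in weakly and 159 and 142 CPM in strongly adherent libraries. The groups did not overlap (log2 difference -0.37 with SE 0.08, edgeR's adjusted p 0.038). The call was lost on leaving out the 6 March strongly adherent library (edgeR's adjusted p 0.32), the 12 March weakly adherent library (0.16) or that of 15 March (0.12), and with the coding-length trend removed (0.055), with a range of 6.3e-05 to 0.32 over all alternatives. CD44, an adhesion receptor for hyaluronan, had 1471, 1521 and 1506 CPM in weakly and 1613 and 1695 CPM in strongly adherent libraries (-0.14, SE 0.07, edgeR's adjusted p 0.44). RNF43 and ZNRF3, target genes whose products remove Frizzled receptors, were named after their values were seen and had differences of -0.10 (SE 0.14) and -0.05 (SE 0.11) on the log2 scale. Of all 13 tested target genes, 6 were lower without overlap (DKK1, MYC, CD44, CCND1, LEF1 and TCF7) and 1 was higher (LGR5). Of all genes tested, 14.5% were lower in that way and 15.5% higher. DKK1, MYC and AXIN2, all known targets, had log2 fold changes of -0.92, -0.37 and 0.12.

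Of the 19 tested planar polarity and non-canonical genes, VANGL1 was called higher and none was called lower. Their log2 fold changes, 10 above and 9 below 0, ran from -1.16 to 0.39. VANGL1, a membrane protein that sets planar polarity, had 119, 120.3 and 116 CPM in weakly and 92.1 and 88.2 CPM in strongly adherent libraries. The groups were well apart (log2 difference 0.39 with SE 0.07, edgeR's adjusted p 0.011). With 1572 coding bases it kept its call with the length trend removed (0.40, edgeR's adjusted p 0.0145). The call was lost on leaving out the 6 March strongly adherent library (edgeR's adjusted p 0.069), that of 15 March (0.0963) or the 12 March weakly adherent library (0.0574), with a range of 8.73e-07 to 0.0963 over all alternatives. CELSR1, an atypical cadherin with 9042 coding bases, differed by 0.39 on the log2 scale (SE 0.12, edgeR's adjusted p 0.15). It was called with the date block (0.44, edgeR's adjusted p 0.00131) and was at 0.01 with the trend removed (0.99, the highest over all alternatives). RHOA, the GTPase that drives contractility, differed by -0.05 (SE 0.07).

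The 4 genes closest to DKK1 across the 5 libraries were ANKRD1, KRT81, IL6 and CYR61. Closeness was the root mean square difference between centred log2(CPM + 0.5) values, over 9340 other genes of at least 10 CPM, and was 0.09 to 0.11 for these 4 against a median of 0.47. ANKRD1, a muscle ankyrin repeat protein and YAP target, had 148, 142 and 152 CPM in weakly and 300.5 and 271 CPM in strongly adherent libraries. IL6, a cytokine, had 16.4, 18.8 and 20.9 CPM in weakly and 31.1 and 32.8 CPM in strongly adherent libraries. In each of the 4 the groups did not overlap, as the choice of genes like DKK1 favours. Among the Wnt pathway genes of at least 10 CPM the closest was MYC, at rank 144 (0.30), followed by TLE1 at rank 284 and BCL9L at rank 528. Wnt genes below that level, such as SOST, WNT3 and FZD8, were not ranked, so a closer profile among them is not excluded. WNT5B had rank 582 and FZD2 rank 720.

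**Figure D4:**
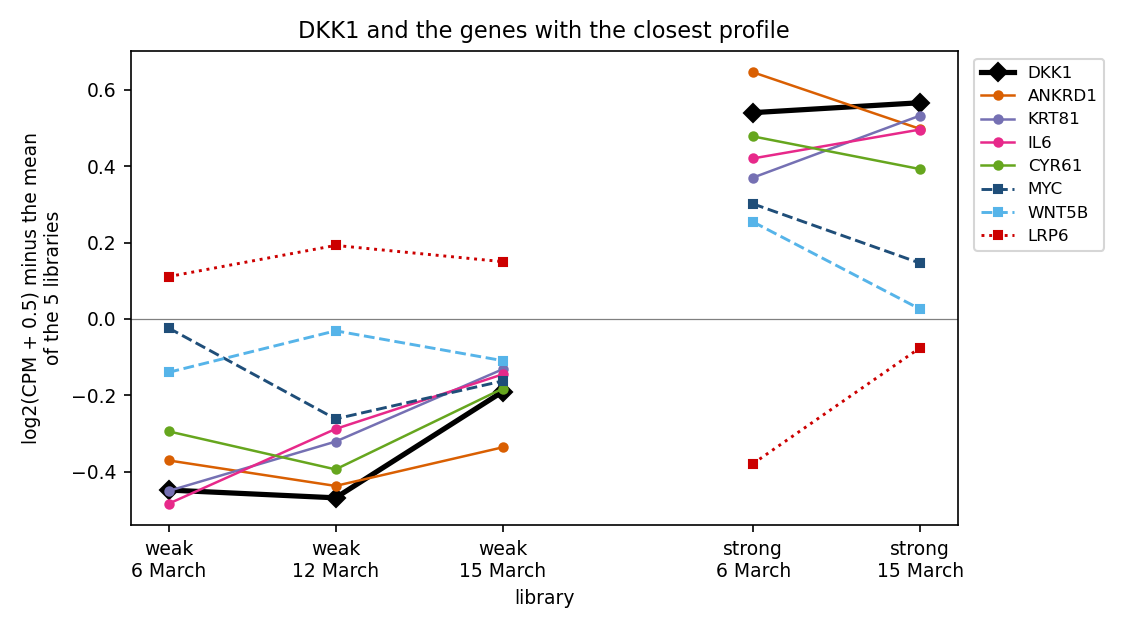
Log2(CPM + 0.5) minus the mean of the 5 libraries for DKK1 (diamonds), the 4 genes with the closest profile (circles), and MYC, WNT5B and LRP6 (squares), by library. Lines only join the libraries of a group. DKK1 and the 4 genes are low in the 3 weakly adherent libraries and high in both strongly adherent ones, and LRP6 runs the other way.

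Other gene groups moved between the same libraries. On a list of 22 YAP/TEAD targets, which holds ANKRD1 and CYR61 but not DKK1, 8 were called lower and 1 higher. Of all genes tested 0.918% were called lower and 1.77% higher. With the date block 10 were called lower and 1 higher, where 5.28% of all genes were lower and 6.2% higher. With the coding-length trend removed 6 were called lower and 1 higher, where 138 of all 13297 genes were lower and 127 higher. The summed level was 5246 to 5316 CPM in weakly and 6278 to 6425 CPM in strongly adherent libraries. On a list of 22 genes of the G2 and M phases 7 were called higher and none lower, beside the 1.77% and 0.918% of all genes. With the date block 20 were called higher, beside 6.2% of all genes. With the trend removed 5 were called higher, beside 127 of all 13297 genes. All 22 had a positive log2 fold change, and the summed level was 8264, 8107 and 5971 CPM in weakly and 4971 and 4363 CPM in strongly adherent libraries. All these lists were chosen with earlier results of these data known. Their part in the values of DKK1 and the Wnt genes was not tested.

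Dates, which the choice of genes did not use, were compared over the 4 libraries of 6 and 15 March, with adhesion as a covariate and 1 residual degree of freedom. None of the 9 genes was called in 15 minus 6 March (0 of 9), where 9.29% of all 13249 genes tested were. An unadjusted p under 0.05 was found for 4 of the 9 and for 22.5% of all genes. DESeq2's Wald test called 0 of the 91 Wnt genes and 203 genes in all, and 3 Wnt genes and 1001 genes in all had an unadjusted p under 0.05 there. The date difference of DKK1 was 0.14 on the log2 scale (SE 0.07, edgeR's adjusted p 0.21). LRP5 came nearest to a call, at 0.19 (SE 0.07, edgeR's adjusted p 0.059). Of all 91 tested Wnt genes 7 were called (7.69%), headed by LGR4, which had 88.0 and 64.9 CPM in weakly adherent cells on 15 and 6 March and 81.0 and 66.9 CPM in the strongly adherent ones (0.35, SE 0.07, edgeR's adjusted p 6.5e-05).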

How the data were processed

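Libraries from total RNA of 5 samples were prepared with a stranded kit and read as 50 bp single ends, per the labels' protocols. Tools listed in the submitters' processing notes are STAR, HTSeq, DESeq2, cutadapt and FastQC, with hg19 as the build; their versions, the annotation and the strand setting are not stated there. The authors deposited raw counts per gene symbol, and log2 values that equal log2(count / size factor + 1). HTSeq's 5 summary rows, 26.2% to 27.4% of each column's total, were left out of library sizes and tests.

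The test was the robust quasi-likelihood F test of edgeR 4.0.16 (R 4.3.3), after filterByExpr and TMM scaling of the counts (Benjamini-Hochberg adjusted p under 0.05 over all genes tested). Log2 fold changes are weakly minus strongly adherent, SE follows from the F statistic, and CPM is TMM-scaled. Per-kb levels and coding lengths use GENCODE 29 (GRCh38, by symbol, no coordinates); 88.5% of tested genes had a coding length. The trend with it, a natural spline with 5 degrees of freedom, was removed as an offset, and genes with no coding length were left uncorrected. Other alternatives were DESeq2 1.42.0, limma 3.58.1 on the deposited log2 values, other scaling and filters, the date as block, and each library left out. The tests were tried on simulated counts. Figures were drawn with matplotlib 3.10.9.

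The titles give the dates, so libraries of the same date were taken as pairs for the differences by date and for the date block. The main test did not pair them. With the date block the 12 March library, alone on its date, adds nothing to the difference between the groups. That difference then rests on the 4 libraries of 6 and 15 March. Within a date, the correlation of deviations from group means was 0.41 (6 March) and 0.24 (15 March). It was 0.20 between weakly adherent cells of 12 March and strongly adherent cells of 15 March, which share no date. The deviations of the 2 strongly adherent libraries mirror each other, so these values alone do not show a shared date effect. Between replicates, chi-square per degree of freedom was 7.49 to 12.6, so none agreed within sampling noise. Genes and lists were chosen with earlier results of these data known. Named are the 10 genes; called genes of the Wnt lists; from each list the 2 tested others with the smallest p and the 1 with the highest mean CPM; and the 5 genes closest to DKK1, of which 1 is not reported here.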

Additional observations from a re-analysis of the deposited data

How the results depend on the processing

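The log2 fold change of DKK1 lay between -1.01 and -0.87 with 1 library left out and between -0.92 and -0.84 in the other alternatives. The median over the tested genes of the 10 was 0.0044 to 0.11 with 1 library left out and -0.059 with no filter on low counts, which adds WNT5A. With no filter 536 genes were called in all, 203 of them lower, and 2 other Wnt genes were called lower. With the date block 1527 genes were called (825 higher, 702 lower), among them 11 other Wnt genes (8 higher, 3 lower). With the coding-length trend removed 127 genes were called higher, and of the other Wnt genes 1 was higher and 0 lower. With the trend removed and the date block, 1294 genes were called (599 higher, 695 lower), among them 8 other Wnt genes, of which 4 were lower. With 1 library left out, 116 to 341 genes were called (82 to 238 higher, 34 to 103 lower), among them 0 to 5 other Wnt genes (0 to 3 higher, 0 to 2 lower); the lowest counts came without the strongly adherent library of 6 March. Between dates, DESeq2 called 0 Wnt genes. The causes of these shifts were not tested. A fit with 1 library left out also has fewer degrees of freedom than the main fit. With the date block APC, EP300, MYC and VANGL1 kept their calls. With 2 strongly adherent libraries the precision of every difference is low, and WNT5A, with at most 10 reads in a library, was not tested with the filter on low counts.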
